A study of Sus scrofa with 8 samples.

Results

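The deposited annotation held 510 nuclear transfer RNA (tRNA) genes among 30364 genes with a gene entry. They were the genes outside the mitochondrial genome with the biotype tRNA or with a name made of TRNA, an amino acid letter and an anticodon, and both criteria found the same 510. The annotation served droplet-based 3′ single-cell RNA sequencing of tracheal submucosal glands (SMGs) from 4 wild-type and 4 CFTR-/- newborn pigs, with 1 library for each of the 8 samples. CFTR encodes an anion channel, and its loss causes cystic fibrosis. No value per animal was analysed here, so the depth per library is unknown and no genotypes were compared. The values are gene counts, coordinates and bases of 1 genome, Sscrofa11.1, and they carry no replicate error.

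tRNAs carry amino acids to the ribosome, where the anticodon pairs with the codon of the messenger RNA. RNA polymerase III transcribes their genes from promoter elements inside the gene, the A box and the B box, and stops in a run of T bases. The ends of the transcript are trimmed, an intron beside the anticodon is spliced out of some, and the letters CCA are added at the 3′ end. Mature tRNAs have no poly(A) tail, and 3′ libraries primed on poly(A) are not made to measure them.

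A few genes show the features that the counts below describe. The first set is 4 genes of a unit that was repeated 7 times on chromosome 4, in genomic order, with the anticodon in capitals. They lie at chr4:89010243-89010313 (minus strand), chr4:89011964-89012046 (minus), chr4:89012617-89012688 (plus) and chr4:89013254-89013325 (plus), and all sequences are the Sscrofa11.1 gene strand, 5′ to 3′.
TRNAG-GCC_1: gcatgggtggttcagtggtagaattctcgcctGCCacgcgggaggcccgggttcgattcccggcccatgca
TRNAL-CAG_1: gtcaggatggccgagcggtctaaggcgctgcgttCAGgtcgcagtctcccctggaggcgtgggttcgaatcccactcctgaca
TRNAD-GUC_3: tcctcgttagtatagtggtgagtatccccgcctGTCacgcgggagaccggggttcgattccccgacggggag
TRNAG-UCC_2: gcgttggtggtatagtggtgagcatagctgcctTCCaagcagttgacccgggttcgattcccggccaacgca

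The second set is the methionine tRNAs, which come as an initiator that starts translation and an elongator that serves internal methionine codons. Shown are an initiator at chr7:21311986-21312057 (plus strand) and an elongator at chr2:13342707-13342779 (plus strand), with the anticodon in capitals. Both read the same codon, yet the sequences were 34 edits apart.
TRNAM-CAU_11: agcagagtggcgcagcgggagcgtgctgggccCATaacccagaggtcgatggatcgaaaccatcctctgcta
TRNAM-CAU: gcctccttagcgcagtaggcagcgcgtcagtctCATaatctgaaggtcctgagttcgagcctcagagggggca

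The third set is 1 unspliced gene for 3 of the 4 anticodons whose genes held an intron, with the intron in capitals. They lie at chr7:21513898-21514003 (plus strand), chr3:97567541-97567633 (minus) and chr1:268773404-268773494 (minus).
TRNAL-CAA_3: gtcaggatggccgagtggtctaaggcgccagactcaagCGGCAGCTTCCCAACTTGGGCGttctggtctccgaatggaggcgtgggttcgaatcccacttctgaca
TRNAI-UAU: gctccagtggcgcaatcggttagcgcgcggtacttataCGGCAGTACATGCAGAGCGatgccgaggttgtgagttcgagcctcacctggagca
TRNAR-UCU: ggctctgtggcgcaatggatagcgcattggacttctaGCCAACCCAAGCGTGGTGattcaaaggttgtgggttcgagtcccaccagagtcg

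The last set concerns Glu-UUC, the anticodon with the most genes, and shows that the genes under this name fell into unlike sequences. The first came from a cluster at chr4:99300115-99300186 (plus strand), the second stood alone at chr1:141310254-141310325 (minus), and the next 3 stood alone at chr1:249536750-249536821 (plus), chr1:268437254-268437325 (minus) and chr2:14676783-14676854 (plus). TRNAN-AUU, named for asparagine, lies at chr7:37997860-37997931 (minus). Capitals mark the anticodon.
TRNAE-UUC_14: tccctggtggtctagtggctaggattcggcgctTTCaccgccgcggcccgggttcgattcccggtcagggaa
TRNAE-UUC_2: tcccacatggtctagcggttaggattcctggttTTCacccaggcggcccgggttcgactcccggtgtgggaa
TRNAE-UUC_3: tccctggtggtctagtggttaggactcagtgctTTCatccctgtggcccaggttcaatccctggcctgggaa
TRNAE-UUC_5: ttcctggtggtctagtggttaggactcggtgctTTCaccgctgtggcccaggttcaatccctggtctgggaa
TRNAE-UUC_6: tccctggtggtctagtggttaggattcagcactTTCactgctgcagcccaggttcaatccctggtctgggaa
TRNAN-AUU: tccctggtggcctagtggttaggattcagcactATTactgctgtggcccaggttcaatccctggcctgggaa

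The next lines give the 50 bases that follow the same 3 isolated genes, with the letters CTGAGATC in capitals. The 3 genes were taken from those followed by these letters, so their likeness there came with the choice. The 3 stretches were rich in A towards their end. They lie at chr1:249536822-249536871 (plus strand), chr1:268437204-268437253 (minus) and chr2:14676855-14676904 (plus).
3′ of TRNAE-UUC_3: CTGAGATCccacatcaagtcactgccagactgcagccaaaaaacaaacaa
3′ of TRNAE-UUC_5: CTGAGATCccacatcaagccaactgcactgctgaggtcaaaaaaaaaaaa
3′ of TRNAE-UUC_6: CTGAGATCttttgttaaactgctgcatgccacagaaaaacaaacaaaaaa

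The 510 genes covered all 20 standard amino acids with 47 anticodons. The letters named as the anticodon were present in the genome at the annotated place in 510 of 510 genes, starting at base 34 of the spliced sequence in 309, at base 33 in 118 and at base 35 in 83. Start, end, strand and exons of all 510 were identical to RefSeq, so the edits that produced the deposited annotation had left the tRNA genes as they were. No gene was named for selenocysteine, for a suppressor or for an undetermined anticodon.

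Glutamate had the most genes, 70, of which 55 were Glu-UUC and 15 Glu-CUC. Alanine followed with 38 (19 AGC, 12 UGC and 7 CGC), glycine with 37 (19 GCC, 13 UCC and 5 CCC) and lysine with 35 (21 UUU and 14 CUU). Among the amino acids with 6 codons, leucine had 34 genes (11 CAG, 7 AAG, 7 CAA, 5 UAA and 4 UAG), arginine 31 (8 ACG, 7 CCU, 6 UCG, 6 UCU and 4 CCG) and serine 30 (11 GCU, 10 AGA, 5 CGA and 4 UGA). These counts left the codon families with the most codons behind glutamate, which has a single pair of codons. Valine had 29 genes (10 AAC, 10 CAC and 9 UAC), threonine 23 (11 AGU, 7 UGU and 5 CGU), isoleucine 19 (14 AAU and 5 UAU) and proline 18 (8 AGG, 6 UGG and 4 CGG). Aspartate had 25 genes, all GUC, cysteine 20 (19 GCA and 1 ACA), and asparagine 14 (13 GUU and 1 AUU). Glutamine had 16 genes (10 CUG and 6 UUG), phenylalanine 16 (GAA), tyrosine 15 (GUA), tryptophan 10 (CCA) and histidine 9 (GUG). Histidine and tryptophan closed the list. The bar chart by anticodon gives the same counts with the genes split by whether they had neighbours.

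**Figure D1:**
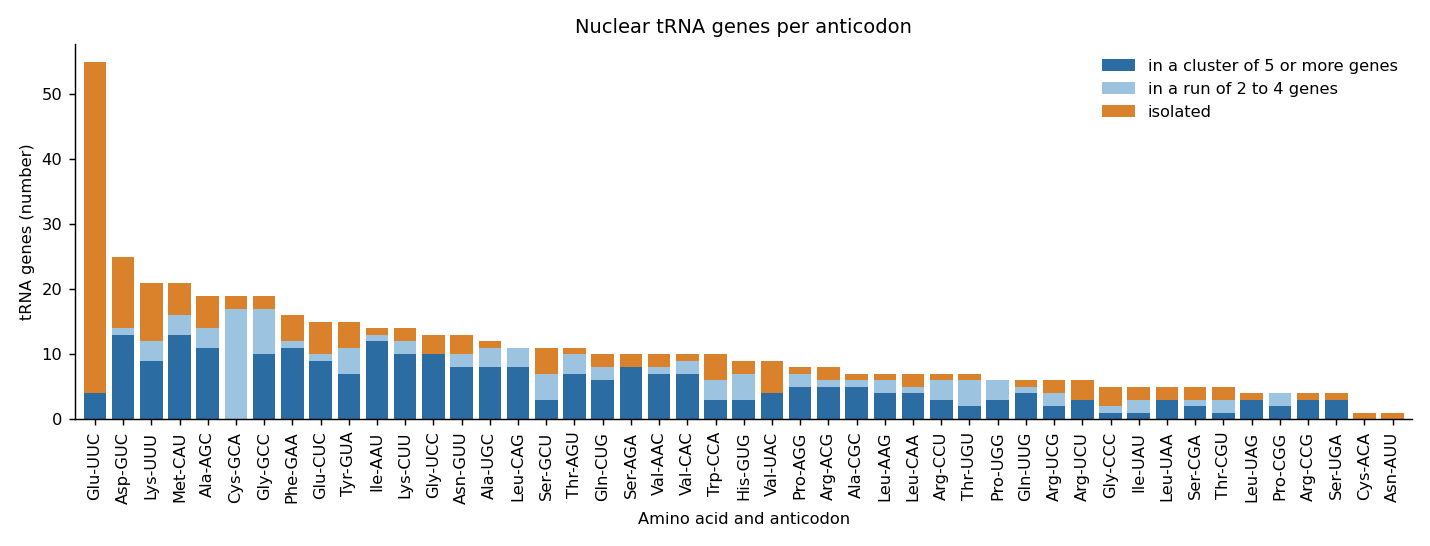
Number of nuclear tRNA genes (vertical axis) for each amino acid and anticodon (horizontal axis), split into genes in a cluster of 5 or more, in a run of 2 to 4 genes at most 10 kb apart, and isolated genes. Glu-UUC had 55 genes, 51 of them isolated, and the next anticodon, Asp-GUC, had 25.

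The first base of the anticodon, which reads the last base of the codon, followed a split by codon family. In 16 pairs of codons ending in T or C, a tRNA could start its anticodon with A or with G. Ala, Arg, Ile, Leu, Pro, Ser, Thr and Val used A with 0 genes that started with G, from 7 genes (Leu-AAG) to 19 (Ala-AGC). In eukaryotes the A of these tRNAs is changed to inosine, which pairs with both T-ending and C-ending codons. Gly, Phe, Tyr, His, Asp and the AGT and AGC codons of Ser used G with 0 genes that started with A, from 9 genes (His-GUG) to 25 (Asp-GUC). The remaining 2 families, Asn and Cys, had both, with 13 Asn-GUU against 1 Asn-AUU and 19 Cys-GCA against 1 Cys-ACA.

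Those 2 genes were the only ones alone in their anticodon, and neither resembled the other tRNAs of its amino acid. TRNAN-AUU, shown above, differed by 5 edits from TRNAE-UUC_15 and by 32 edits from the closest Asn-GUU gene. TRNAC-ACA (chr17:20164218-20164288, plus strand) differed by 8 edits from TRNAV-UAC_2 and by 29 from the closest Cys-GCA gene. Of 17 base pairs counted in the acceptor, anticodon and T stems, TRNAN-AUU formed 16 and TRNAC-ACA 15. Thus each single gene was nearest to a gene named for a different amino acid.

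Of the 61 sense codons, 47 had a tRNA gene with the exactly complementary anticodon, and these codons made up 75.8% of 11383032 codons in 20233 coding sequences (1 per protein-coding gene, the longest). The other codons need wobble pairing or a modified base. Within the 47, AAT (1.49% of codons) and TGT (1.01%) were matched only by TRNAN-AUU and TRNAC-ACA, the single genes described above. Across the 20 amino acids, the number of tRNA genes and the share of residues in these coding sequences had a Pearson's r of 0.63 and a Spearman's rho of 0.78. All points come from 1 genome, so these are descriptions without a test. Glutamate lay farthest from proportion, with 13.7% of the tRNA genes and 6.81% of the residues. Without the Glu-UUC genes, r was 0.71 and rho 0.66, and without the amino acid glutamate r was 0.77 and rho 0.77. Without the genes of any anticodon followed by CTGAGATC, letters picked after the sequences had been seen, r was 0.79 and rho 0.79. With distinct spliced sequences counted in place of genes, r was 0.46 and rho 0.63. Leucine lay on the opposite side, with 6.67% of the genes and 10.2% of the residues.

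The 510 genes had 288 distinct spliced sequences, and 293 genes shared theirs with at least 1 other gene. The most frequent was an Asp-GUC sequence found 13 times on chromosomes 4, 5, 7, 12 and 14, which is that of TRNAD-GUC_3 above. It was followed by an Ile-AAU sequence found 12 times, a Glu-CUC sequence found 11 times, and a Gly-UCC (that of TRNAG-UCC_2) and an Asn-GUU sequence found 10 times each. The 8 Pro-AGG genes, on chromosomes 3, 4, 7, 9 and 18, were all identical, as were the 4 Pro-CGG genes. In contrast, the 55 Glu-UUC genes had 51 distinct sequences. Identical genes cannot be told apart by reads that fall within them.

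Met-CAU genes separated into 11 with A at base 54 of standard tRNA numbering, the first base of the T loop and a mark of the initiator, and 10 without it. The 11 initiator-type genes had just 2 sequences, which differed by A19G (positions counted from 1 at the 5′ end), with 8 and 3 copies. The 10 elongator-type genes had 8 sequences. Among all genes, bases 54 to 56 read TTC in 487 and ATC in 17, and 11 of these 17 were the initiator-type genes. The rest were Ala-AGC genes, namely TRNAA-AGC_1, TRNAA-AGC_3, TRNAA-AGC_4, TRNAA-AGC_5, TRNAA-AGC_6 and TRNAA-AGC_7. A at base 54 was therefore not confined to initiator-type genes.

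Spliced length was 71 to 84 bases with a median of 73. Leucine and serine tRNAs, which carry a long variable arm, made up the upper end with 81 to 84 bases in 64 genes, while the other 446 genes had 71 to 75 bases. All 17 stem pairs formed in 392 genes (76.9%), 16 in 77, 15 in 32, 14 in 8 and 11 in 1. The gene with 11 was TRNAA-AGC_8 (chr7:22346139-22346211, plus strand). At the positions counted it formed 0 of the 5 pairs of the anticodon stem, 6 of 7 in the acceptor stem and 5 of 5 in the T stem. The count takes the anticodon loop as 7 bases. With 1 base more in the loop, all 5 pairs of the anticodon stem form in its sequence, so the 0 came from the fixed positions. Ile-AAU showed that a missing pair can be a family trait, since 13 of its 14 genes formed 16 pairs and 1 formed 15.

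Introns were present in 30 genes, which belonged to 4 anticodons. Tyr-GUA genes had one in 14 of 15 cases (15 to 21 bases, median 17), Leu-CAA genes in 6 of 7 (22 to 25 bases), Ile-UAU genes in 5 of 5 (19 or 20 bases) and Arg-UCU genes in 5 of 6 (12 to 18 bases). These are the anticodons known to carry introns in vertebrates. In every intron-bearing gene the first exon ended 1 base after the anticodon, at the place where the tRNA splicing endonuclease cuts. In all 4 anticodons the introns varied more than the exons around them. The 14 Tyr-GUA introns had 13 sequences, while the 15 Tyr-GUA genes, the one without an intron included, had 7 spliced sequences. The 5 Ile-UAU genes had 5 introns but 2 spliced sequences. The 6 Leu-CAA introns all differed, though TRNAL-CAA_3 and TRNAL-CAA_4 shared a spliced sequence. The 5 Arg-UCU introns all differed, though TRNAR-UCU and TRNAR-UCU_1 shared one. All 30 genes formed all 17 stem pairs and were followed by a run of T.

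The 3 genes of these anticodons without an intron were less like their families. TRNAL-CAA_1 (chr5:40294350-40294430, minus strand) was 57.1% identical to the most frequent Leu-CAA sequence and formed 16 stem pairs. TRNAR-UCU_2 (chr4:91287031-91287104, plus) was 82.4% identical to the most frequent Arg-UCU sequence and formed 17. TRNAY-GUA_3 (chr5:28274038-28274110, plus) was 94.5% identical to the most frequent Tyr-GUA sequence, formed 15 and lay inside TMEM5. The lowest identity therefore belonged to the leucine gene.

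tRNA genes were unevenly spread over the genome. Chromosome 7 held 143, or 1.17 per Mb, followed by chromosome 4 with 70 (0.535 per Mb), chromosome 12 with 44 (0.714 per Mb), chromosome 3 with 36 and chromosome 2 with 29. Chromosome 13, with 208 Mb, held 4 genes, chromosome 8 held 2 and chromosome Y 0. A further 62 genes were on 6 unplaced scaffolds, 43 of them on a scaffold of 333895 bases and 14 on one of 60458 bases. The plot of genes by chromosome shows that clusters held most of the genes on chromosomes 7 and 4 (102 and 54), but 12 of the 44 on chromosome 12.

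**Figure D2:**
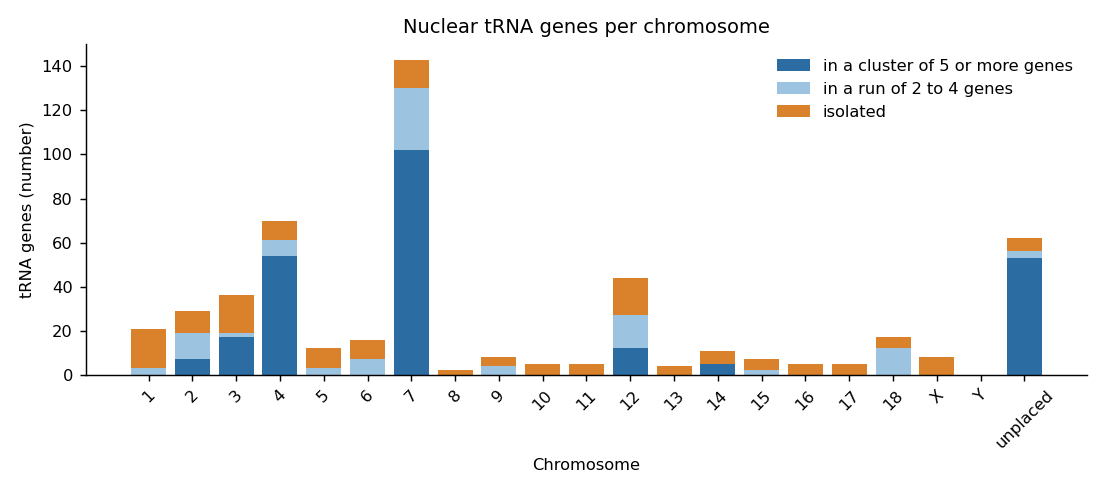
Number of nuclear tRNA genes (vertical axis) on each chromosome and on all unplaced scaffolds together (horizontal axis), split by neighbourhood as in the chart by anticodon. Chromosome 7 held 143 genes, 102 of them in clusters, and on chromosomes 8, 10, 11, 13, 16, 17 and X every gene was isolated.

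A cluster was 5 or more tRNA genes with at most 10 kb between neighbours. There were 22 clusters with 250 genes (49.0% of all), while 162 genes were isolated, with no other tRNA gene within 10 kb. The median distance from a tRNA gene to the next on the same sequence was 4.90 kb, and the shortest was 121 bases. Among the 250 clustered genes 5 lay inside a protein-coding gene (2.00%), against 61 of the 162 isolated ones.

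The largest cluster, 35 genes over 75.4 kb at chr4:89010243-89085671, was a tandem array. The 5 genes of the unit, Gly-GCC and Leu-CAG on the minus strand and Asp-GUC, Gly-UCC and Glu-CUC on the plus strand, followed each other 7 times in the same order and orientation. Each unit spanned 3483 to 3531 bases, and the step from one unit to the next was 11983 ± 84.3 bases (SD over 6 steps). The 7 copies of each gene were identical in sequence except for Asp-GUC, where 6 were identical and 1 differed. A second, smaller group lay 36.5 to 50.8 kb before the array, with TRNAG-GCC, TRNAL-CAG, TRNAG-UCC_1 and TRNAD-GUC_2, each on the strand opposite to that of its anticodon in the array, and TRNAN-GUU_1 at its outer end. In that group the Asp-GUC and Gly-UCC genes had a sequence of the array, and the others did not. No protein-coding gene lay within the array, and the nearest were LOC110260307 at 20.5 kb and CFAP126, a ciliary protein gene, at 22.4 kb.

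**Figure D3:**
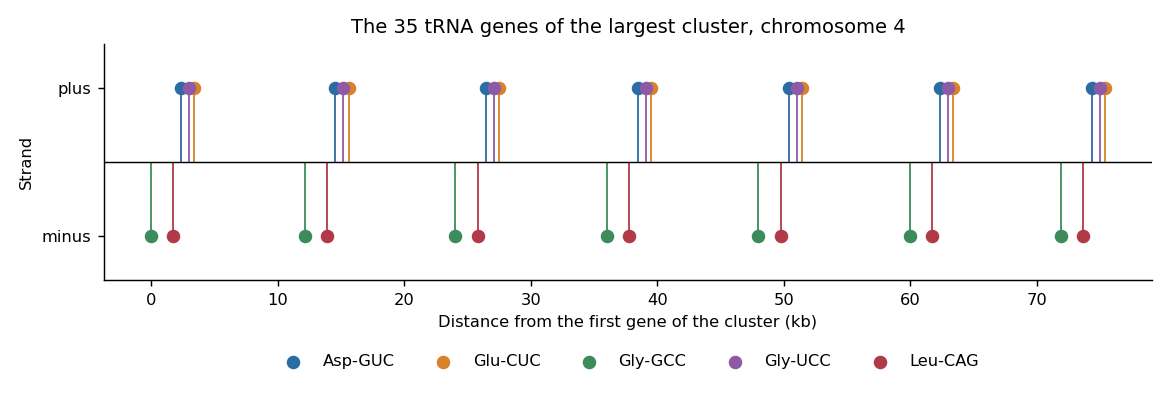
Position of each of the 35 tRNA genes of the largest cluster, in kb from its first gene (horizontal axis), on the plus or minus strand (vertical axis), with a colour for each anticodon. The same 5 genes recur 7 times at steps of about 12 kb, and the units span 3483 to 3531 bases each.

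The other large clusters held other sets of genes. The second held 21 genes at chr7:21441201-21526484, with 6 Ser-AGA and 3 Leu-CAA genes among 9 anticodons and 15 sequences. The third held 20 genes over 69.3 kb of the unplaced scaffold of 333895 bases, with 5 Ala-AGC and 5 Phe-GAA genes. The fourth held 17 genes at chr3:39026853-39066592 for lysine, arginine and proline alone, 8 of them Lys-CUU, with 14 on the minus strand. The fifth held 16 genes at chr7:21296494-21329895, 9 on the plus and 7 on the minus strand, of which 5 were Ile-AAU. The 7 genes on either side of its Ser-GCU gene mirrored each other, with the same anticodons in reverse order and each on the opposite strand. None of the 5 largest clusters contained a protein-coding gene.

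Of the 22 clusters, 10 lay on chromosome 7, and 8 of these followed each other in one region. When genes at most 500 kb apart were joined, 117 tRNA genes fell in a region of 1524 kb at chr7:20912465-22436850, on both strands (60 plus and 57 minus) and with 36 anticodons for 18 amino acids. Met-CAU (13 genes) and Ile-AAU (11) led the list, and 10 genes had an intron. The region also held 66 protein-coding genes, among them 13 with histone products, 20 with olfactory receptor products and 12 zinc finger genes by symbol. The scaffold of 333895 bases, which holds TRIM27, had 43 further genes of 15 anticodons, led by Ala-AGC (8) and Phe-GAA (7).

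Among the 510 genes, 78 (15.3%, 95% Clopper-Pearson interval 12.3 to 18.7%) overlapped the span of a protein-coding gene, against 159 of 315 miRNA genes (50.5%, 44.8 to 56.1%). By a two-sided Fisher's exact test the odds ratio was 0.177 (p = 6.67e-27). Neighbouring genes are not independent, so each run of genes at most 10 kb apart was also counted once by its first gene. The shares were then 67 of 221 (30.3%) and 141 of 257 (54.9%), with an odds ratio of 0.358 (Fisher's exact test, p = 7.15e-08). The direction was the same and the difference smaller.

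The strands differed as well. Among the 78 tRNA genes inside a protein-coding gene, 32 were on its strand (41.0%, 30.0 to 52.7%), against 122 of 159 miRNA genes (76.7%, 69.4 to 83.1%). By the same two-sided exact test the odds ratio was 0.211 (p = 1.14e-07). With each run of neighbours counted once, the shares were 29 of 67 (43.3%) and 112 of 141 (79.4%). The odds ratio was then 0.198 (Fisher's exact test, p = 4.73e-07). miRNAs inside genes are often cut from the host transcript, which requires the same strand, and tRNA genes have their own promoter. Whether either accounts for the difference in strand was not tested. The interval for tRNA genes included an even split between strands. The intervals and the p-value over all genes treat genes as independent.

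**Figure D4:**
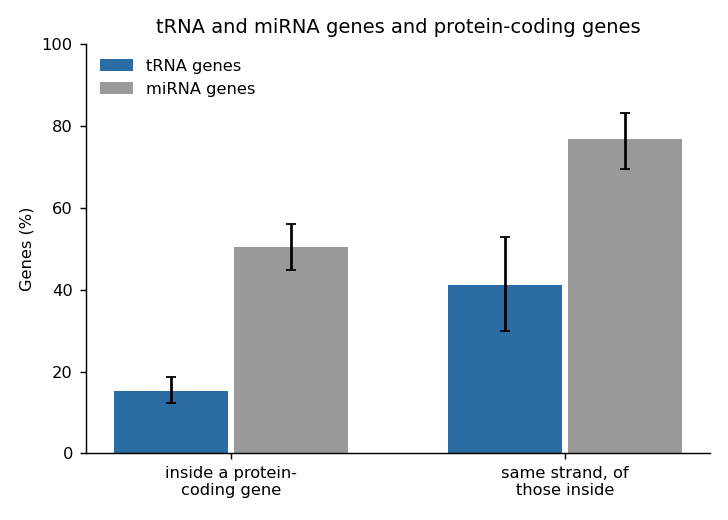
Share of tRNA genes (blue) and miRNA genes (grey) that lie inside a protein-coding gene, and, of those inside, the share on the same strand (vertical axis, percent). Error bars are 95% Clopper-Pearson intervals, and tRNA genes were lower in both measures, at 15.3% against 50.5% and 41.0% against 76.7%.

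The 78 genes lay in 69 protein-coding genes, 64 of which held a single tRNA gene. AURKB, a mitotic kinase gene, and BORCS6, which encodes a subunit of a lysosome positioning complex, held 4 each, VAC14 held 3 Gly-GCC genes, and AGBL5 and LOC102168126 held 2 each. In 65 cases the tRNA gene lay in introns. A further 36 tRNA genes overlapped the span of a long noncoding RNA gene, and 396 overlapped neither kind.

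In 13 cases the tRNA gene shared exon bases with the protein-coding gene, 4 on the same strand and 9 on the opposite one, and 11 of the 13 lay wholly in exons. Cell Ranger does not count a read that fits exons of more than 1 gene on its strand, and whether any read was lost in this way was not tested. On the same strand, TRNAE-UUC_4 (chr1:253925779-253925850) lay with all 72 bases in the 3′ UTR of RNF183, a ubiquitin ligase gene. TRNAM-CAU_13 (chr7:21343887-21343958) lay with all 72 in the 5′ UTR of POM121L2, and TRNAW-CCA (chr3:6408333-6408404) with all 72 in exons of noncoding transcripts of LOC100522670. TRNAD-GUC_19 (chr12:53422342-53422413) shared 17 of 72 bases with the 5′ UTR of AURKB. Thus 1 of the 4 lay in an annotated 3′ UTR, the part of coding transcripts that 3′ libraries read. Where TRNAW-CCA lies along its noncoding transcripts was not examined.

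On the opposite strand, 4 genes within 1484 bases, TRNAW-CCA_5, TRNAS-GCU_8, TRNAT-AGU_8 and TRNAI-AAU_11, lay wholly in the 3′ UTR of BORCS6 on chromosome 12. The others lay in 5′ UTRs, with TRNAR-UCG_4 in that of POLG, the mitochondrial DNA polymerase gene, TRNAG-GCC_16 in that of HES7, a segmentation clock repressor gene, TRNAV-AAC_9 in that of ACTRT3 and TRNAD-GUC_20 in that of BLK, a kinase gene of B cells. TRNAE-UUC_27 shared 8 bases with LOC102159419 and was the single case that touched coding sequence. RefSeq before the edits gave the same total of 13 and the same 4 on the same strand. Exons of long noncoding RNAs shared bases with 11 tRNA genes, 5 of them on the same strand.

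Glu-UUC differed from the other anticodons in where its genes lay, a contrast noticed in the data and therefore given without a test. It had 51 of 55 genes isolated (92.7%), against 111 of the other 455 (24.4%), and 33 of 55 inside a protein-coding gene (60.0%), against 45 of 455 (9.89%). All 33 were isolated ones, 13 on the strand of the coding gene and 20 on the other. Glu-UUC genes were present on 19 chromosomes, all except Y. By number of genes Asp-GUC came next in both, with 11 of 25 isolated and 8 of 25 inside protein-coding genes. By share, the next were Gly-CCC with 3 of 5 isolated, apart from the 2 anticodons with a single, isolated gene, and Trp-CCA with 4 of 10 inside protein-coding genes. Without Glu-UUC, an alternative chosen after seeing the data, the odds ratio against miRNA genes for lying inside a protein-coding gene was 0.108 (Fisher's exact test, p = 2.22e-36), so these genes narrowed that difference.

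**Figure D5:**
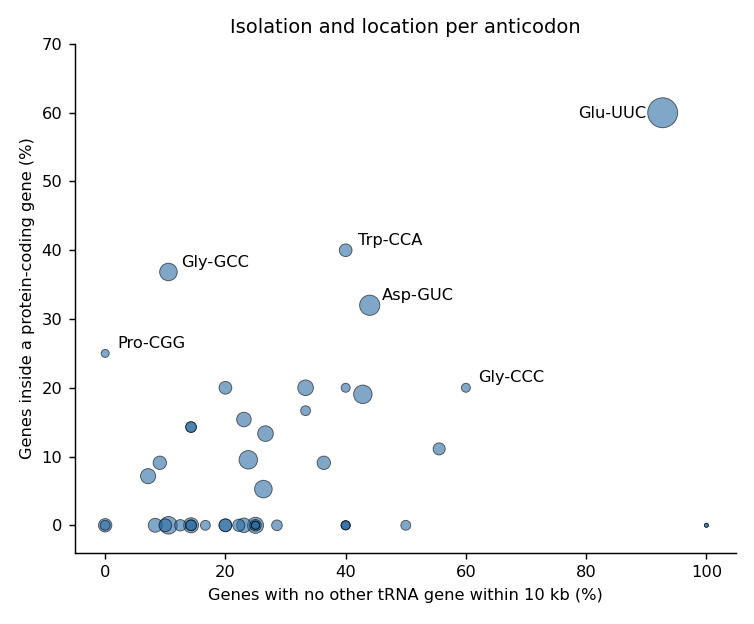
Each circle is 1 of 47 anticodons, with an area in proportion to its number of genes. The horizontal axis gives the percent of its genes with no other tRNA gene within 10 kb and the vertical axis the percent inside a protein-coding gene, and Glu-UUC lies alone at 92.7% and 60.0%.

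The sequences of these genes differed in parallel. The Glu-UUC genes formed all 17 stem pairs in 10 of 55 cases (18.2%), against 382 of 455 other genes (84.0%). Their median identity to the most frequent sequence of the anticodon, that of TRNAE-UUC_14 with 3 copies, was 81.9%. The same measure had a median of 98.8% over the genes of the other anticodons. It was below the Glu-UUC value for 3 anticodons with fewer genes, Gly-CCC (67.6%, 5 genes), Val-UAC (74.0%, 9 genes) and Thr-CGU (77.0%, 5 genes). In the genome file, where lower-case letters mark repeats and low complexity, over 50% of the gene was in lower case for 51 of 55 Glu-UUC genes (92.7%) and for 85 of 455 others (18.7%). Other anticodons were marked too, with all 15 Glu-CUC, all 13 Gly-UCC and all 12 Ala-UGC genes. Lower case was also found in clusters, for 47 of the 250 clustered genes.

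The bases after the gene set most of the isolated Glu-UUC genes apart. The letters CTGAGATC, picked after the sequences had been seen and searched on the gene strand with at most 1 mismatch in the 50 bases that follow, were found after 40 of 55 Glu-UUC genes (72.7%) and after 19 of 455 others (4.18%). Windows of the same length 500 bases before the genes held them in 9 of 509 cases (1.77%). All 40 Glu-UUC genes with the letters were isolated, no pair of them had the same sequence, and 26 lay inside protein-coding genes. The other 19 included 4 Lys-UUU, 3 Asp-GUC and 3 Glu-CUC genes and TRNAN-AUU. Of these 19, 16 were isolated, 11 lay inside a protein-coding gene, 14 were mostly in lower case and 7 formed all 17 stem pairs. The traits described for Glu-UUC were thus also found in genes of other anticodons that were followed by the letters. Pig genomes hold interspersed repeats derived from tRNAs, and whether these genes are such repeats was not tested.

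The same 40 genes differed from the clustered Glu-UUC sequence by shared changes. The 39 that were 72 bases long were 11 to 18 edits from TRNAE-UUC_14 (median 13), and 2 to 18 edits from each other (median 9). There were 11 substitutions relative to TRNAE-UUC_14, counted from 1 at the 5′ end, that were each present in over 50% of the 39 genes. The most common were C19T, C42T and A67T in 38 of 39 each, T59C in 37, and G56A and C62T in 35 each. The lines above show these 6 in TRNAE-UUC_3, TRNAE-UUC_5 and TRNAE-UUC_6.

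The 4 Glu-UUC genes that were mostly in upper case formed a small family of their own. TRNAE-UUC_2, TRNAE-UUC_27, TRNAE-UUC_29 and TRNAE-UUC_39, on chromosomes 1, 11 and 15, had 2 sequences, formed all 17 stem pairs and were each followed by a run of T. They were isolated, as the other group was. TRNAE-UUC_2 was 15 edits from the clustered sequence of TRNAE-UUC_14. The clustered form was represented by 4 genes, TRNAE-UUC_13 and TRNAE-UUC_14 on chromosome 4 and TRNAE-UUC_53 and TRNAE-UUC_54 on an unplaced scaffold.

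The signals of RNA polymerase III varied between anticodons. The core of the B box, GGTTCNA on the gene strand, was present in 440 of 510 genes (86.3%, 83.0 to 89.1%) and in 8 of 509 windows of the same length before the genes (1.57%). The 70 genes without it were concentrated in families. All 21 Met-CAU, all 10 Trp-CCA, all 6 Gln-UUG and all 5 Ile-UAU genes and 5 of 7 Thr-UGU genes lacked these letters, and 23 were spread over 10 anticodons. The Met-CAU and Ile-UAU lines above show their forms. A missing match says only that these letters were not in the gene. Glu-UUC genes held the core in 52 of 55 cases (94.5%).

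A run of at least 4 T in the 50 bases after the gene, the stop signal, was present for 393 of 510 genes (77.1%, 73.2 to 80.6%) and in 131 of 509 windows of 50 bases before the genes (25.7%). For Glu-UUC it was present in 8 of 55 genes (14.5%, 6.50 to 26.7%) and for the other anticodons in 385 of 455 (84.6%, 81.0 to 87.8%). Of the 40 Glu-UUC genes followed by CTGAGATC 1 had such a run, and of the other 15 it was 7. The 250 clustered genes had it in 223 cases (89.2%). Glu-CUC had it in 4 of 15 genes, with 0 of the 7 in the chromosome 4 array and 4 of the 8 elsewhere.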

How the data were processed

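The deposited file was the annotation that the authors had edited from NCBI Sus scrofa Annotation Release 106 and used as the Cell Ranger reference (version 3.0.2 per the submitters' notes). The deposited values are 1-based coordinates of the build Sscrofa11.1. Its tRNA genes carry the source tRNAscan-SE 1.23. Bases were read from the RefSeq genome of the same build (pysam 0.24.0). Exons were joined into spliced sequences and compared by edit distance (edlib 1.3.9.post1). Stem pairs were Watson-Crick or G-T, counted at fixed positions. Shares were compared with Fisher's exact test and given Clopper-Pearson intervals (scipy 1.17.1). Comparisons with snoRNA and snRNA genes were also planned, but 0 genes had either biotype, so each family held 1 test and no adjustment was needed. The genes named were those alone in an anticodon, the 5 largest clusters, the intron-bearing anticodons, the 5 most frequent sequences and every case of shared exon bases; others were named after their values were seen. Members and lists were chosen with earlier results of these data known. Scripts passed 9 of 9 checks on simulated data. Mitochondrial tRNA genes (22) were left out, and the sequences of some genes are not reported here.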

Additional observations from a re-analysis of the deposited data

How the results depend on the processing

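The differences from miRNA genes in the share inside protein-coding genes and in strand kept their direction and their side of the threshold under the alternatives tried. Counting identical spliced sequences once left 288 tRNA genes and 17 with an intron. Clusters numbered 40 when 3 genes were enough. The share of genes in clusters was 34.1% at a distance of at most 5 kb, 60.2% at 50 kb, 60.8% with 3 or more genes and 64.9% at 500 kb, an alternative chosen after seeing the data. Shared exon bases on the same strand left 4 genes. A run of T followed 70.4% within 25 bases, and a run of at least 5 T followed 31.6%. With 1 mismatch the B box core was found in 100% of genes, and in 23.8% of the windows before them. Without a mismatch, CTGAGATC followed 41.8% of Glu-UUC genes (also chosen after seeing the data). No paired analysis was possible because the deposited file gives gene models and nothing measured in a sample. The annotation is a prediction on 1 assembly, which may join, split or miss repeated arrays. Whether a gene is transcribed was not measured.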

Other observations

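Cys-GCA genes lay in a group that the cluster definition missed. Of the 19, 12 were on chromosome 18 at chr18:55573109-55731650, a stretch of 159 kb with no other tRNA gene, and these 12 had 11 sequences. Of all 19, 0 were in a cluster of 5 or more, since runs of neighbours at most 10 kb apart held no more than 4 of them. The stretch also held 2 protein-coding genes, both zinc finger genes by symbol. At chr7:78263024-78326893, 16 tRNA genes for 4 amino acids included 5 of the 15 Tyr-GUA genes, and 5 of the 16 had an intron. At chr12:53332455-53586649, 19 tRNA genes with 15 anticodons stood among 15 protein-coding genes, and this stretch holds the genes in BORCS6, AURKB and HES7.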
